A study of Mus musculus with 17 samples.

Results

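Adipokines are hormones and signalling proteins that fat tissue releases, and 9 genes of this kind or of their signalling were followed here across mouse fat depots and fat-like implants: Adipoq (adiponectin), Retn (resistin), Nampt (visfatin, an NAD-synthesis enzyme), Rbp4 (the plasma retinol carrier), Apln (apelin), Rarres2 (chemerin) and Nrg4 (neuregulin 4), with the adiponectin receptor genes Adipor1 and Adipor2. They were taken by symbol from a table of 54658 genes, where all 9 had a row and all 9 passed the filter on low values. The study implanted mouse embryonic fibroblasts (MEFs), which grew into tissue resembling fat, into hosts labelled LD, and sequenced RNA of the implants and of endogenous fat from animals ending at 28 weeks of age, in a project on joint damage after knee surgery. Published work on this implant model describes LD hosts as lipodystrophic mice whose fat cells are removed by diphtheria toxin switched on by Cre under the Adipoq promoter. The labels do not spell this out and do not name the strain or the leptin allele.

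The WT implants came from wild-type MEFs (codes MWM, male, and MWF, female, 2 libraries each). The KO implants came from MEFs labelled leptin homozygous knockout (codes MKM, male, and MKF, female, 2 libraries each). Cells were injected under the skin over the sternum at 3 to 5 weeks of age, surgery on 1 knee followed at 16 weeks, and these 4 codes are all labelled as surgical. Endogenous visceral fat had the codes EVM (surgery), EVFN (no surgery) and EVFY (not spelled out), with 2 libraries each, and endogenous subcutaneous fat had the code ESM (male, surgery), with 2 libraries. The design text calls the hosts male although MWF and MKF are described as female, and it does not say from which animals the endogenous fat was taken. No label says whether the libraries of a code came from separate animals or pooled tissue, so the p-values measure the spread between libraries.

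In fat, adiponectin is assembled into multimers in the endoplasmic reticulum of adipocytes and acts on other tissues through ADIPOR1 and ADIPOR2, receptors with ceramidase activity linked to AMPK and PPAR-alpha signalling. Its plasma level falls in obesity. Resistin is a small secreted protein, in mice made mainly by white adipocytes and tied to insulin resistance. RBP4 carries retinol in blood together with transthyretin and is made mostly by liver and then by fat. Chemerin draws immune cells through CMKLR1 after proteases trim its end, neuregulin 4 activates ERBB receptors and is made by brown and white adipocytes, and apelin acts on the receptor APLNR.

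Promoters of 8 members, all but Rarres2, were found in RefSeq sequence of build GRCm38.p6. In the 250 bases before the start site, the adiponectin and resistin genes held 0 and 2 CpG dinucleotides, against a median of 6 over 32851 mouse promoters, whereas Adipor1 held 15 and 33 at its 2 start sites, Nampt and Adipor2 held 27, Apln 12 and Nrg4 10. Rbp4 held 5 at its upstream start site and 28 at its downstream one. The sequences of 2 hormone genes poor in CpG and 1 receptor gene, Adipor1 at its upstream start site, are shown for this contrast, each on the plus strand from 5′ to 3′, with CpG in capitals, at chr16:23146286-23146535, chr8:3655520-3655769 and chr1:134415128-134415377.
Adipoq: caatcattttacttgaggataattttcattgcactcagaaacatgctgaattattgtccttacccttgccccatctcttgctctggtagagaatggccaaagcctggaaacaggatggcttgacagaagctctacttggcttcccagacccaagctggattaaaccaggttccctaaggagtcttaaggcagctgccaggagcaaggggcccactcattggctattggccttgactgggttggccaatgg
Retn: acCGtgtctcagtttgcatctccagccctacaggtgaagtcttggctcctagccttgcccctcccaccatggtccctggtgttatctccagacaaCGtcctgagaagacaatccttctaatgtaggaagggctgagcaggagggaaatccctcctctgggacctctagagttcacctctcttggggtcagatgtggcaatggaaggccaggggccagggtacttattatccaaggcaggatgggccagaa
Adipor1: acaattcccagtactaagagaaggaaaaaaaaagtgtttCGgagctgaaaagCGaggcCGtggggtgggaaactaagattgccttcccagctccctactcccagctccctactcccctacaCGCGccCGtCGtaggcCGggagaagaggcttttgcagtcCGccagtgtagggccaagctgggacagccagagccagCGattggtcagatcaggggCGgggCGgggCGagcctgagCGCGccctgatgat
The Adipoq window held the CCAAT box (letters CCAAT, searched on both strands) at 3 positions. The upstream windows of Adipor1 and of Rbp4 held it at 1 position each. This motif was present in 33.8% of the promoters of that length. The C/EBP core TTGCNNAA (9.56% of promoters) was found at 1 position, before the downstream start of Rbp4. The nuclear receptor site AGGTCA (14%) was found at 2 positions before Nrg4 and at 1 before Nampt. No matches of different motifs overlapped, and a match describes letters only.

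In the GENCODE annotation of the mouse build GRCm38, the genes lie apart from each other: Adipoq on chromosome 16 (23146536 to 23158028, plus strand), Retn on 8 (3655770 to 3660110, plus), Rbp4 on 19 (38116629 to 38125281, minus), Nampt on 12 (32819545 to 32853349, plus), Apln on X (48025146 to 48034853, minus), Nrg4 on 9 (55220222 to 55326844, minus), Adipor1 on 1 (134415378 to 134433351, plus), and Rarres2 (48569696 to 48572789, minus) and Adipor2 (119353150 to 119417704, minus) far apart on 6. Exons of the opposite-strand gene Lrrc61 cover 33.6% of the Rarres2 exon bases, and Fbxo22 and Gm15625 cover 6.06% and 2.91% of those of Nrg4. Reads from such pairs cannot be told apart if strand was not used in counting, which the labels do not state. Lrrc61 itself had 5.42 to 15.2 CPM (reads per gene scaled to a library total of 1000000) in the 16 libraries.

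The libraries held 16444965 to 25805502 assigned reads, so that 1 read was worth 0.0388 to 0.0608 CPM. The least-read member was Apln, with at least 112 reads in each library of the fit. All labels name the tissue as ganglia, yet 14 white adipocyte markers summed to 22388 to 70919 CPM in the 14 libraries used, and 15 sensory neuron markers to 8.09 to 83.4 CPM. Leptin RNA was not low in implants labelled KO (Lep at 1336 to 1726 CPM, against 806 to 2675 CPM in WT implants). An allele that leaves the transcript would look the same, so Lep does not check this label, and KO below means the library's label only. The libraries labelled EVFN1 and MKM1 stood apart from their code mates: EVFN1 correlated best with MKF1 (r = 0.984 over genes, against 0.906 with EVFN2), and MKM1 with EVFY1 (r = 0.989, against 0.890 with MKM2). MKM1, labelled male, had 0 CPM of the Y-linked Ddx3y and 352 CPM of Xist. Both are shown singly and are in no group mean, which leaves 4 WT implants, 3 KO implants, 5 visceral and 2 subcutaneous fat libraries. For the 9 genes, calls that change when all 16 libraries are used as labelled are given beside them. In whole tissue, fewer cells of a type and less RNA per cell cannot be told apart.

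**Figure D1:**
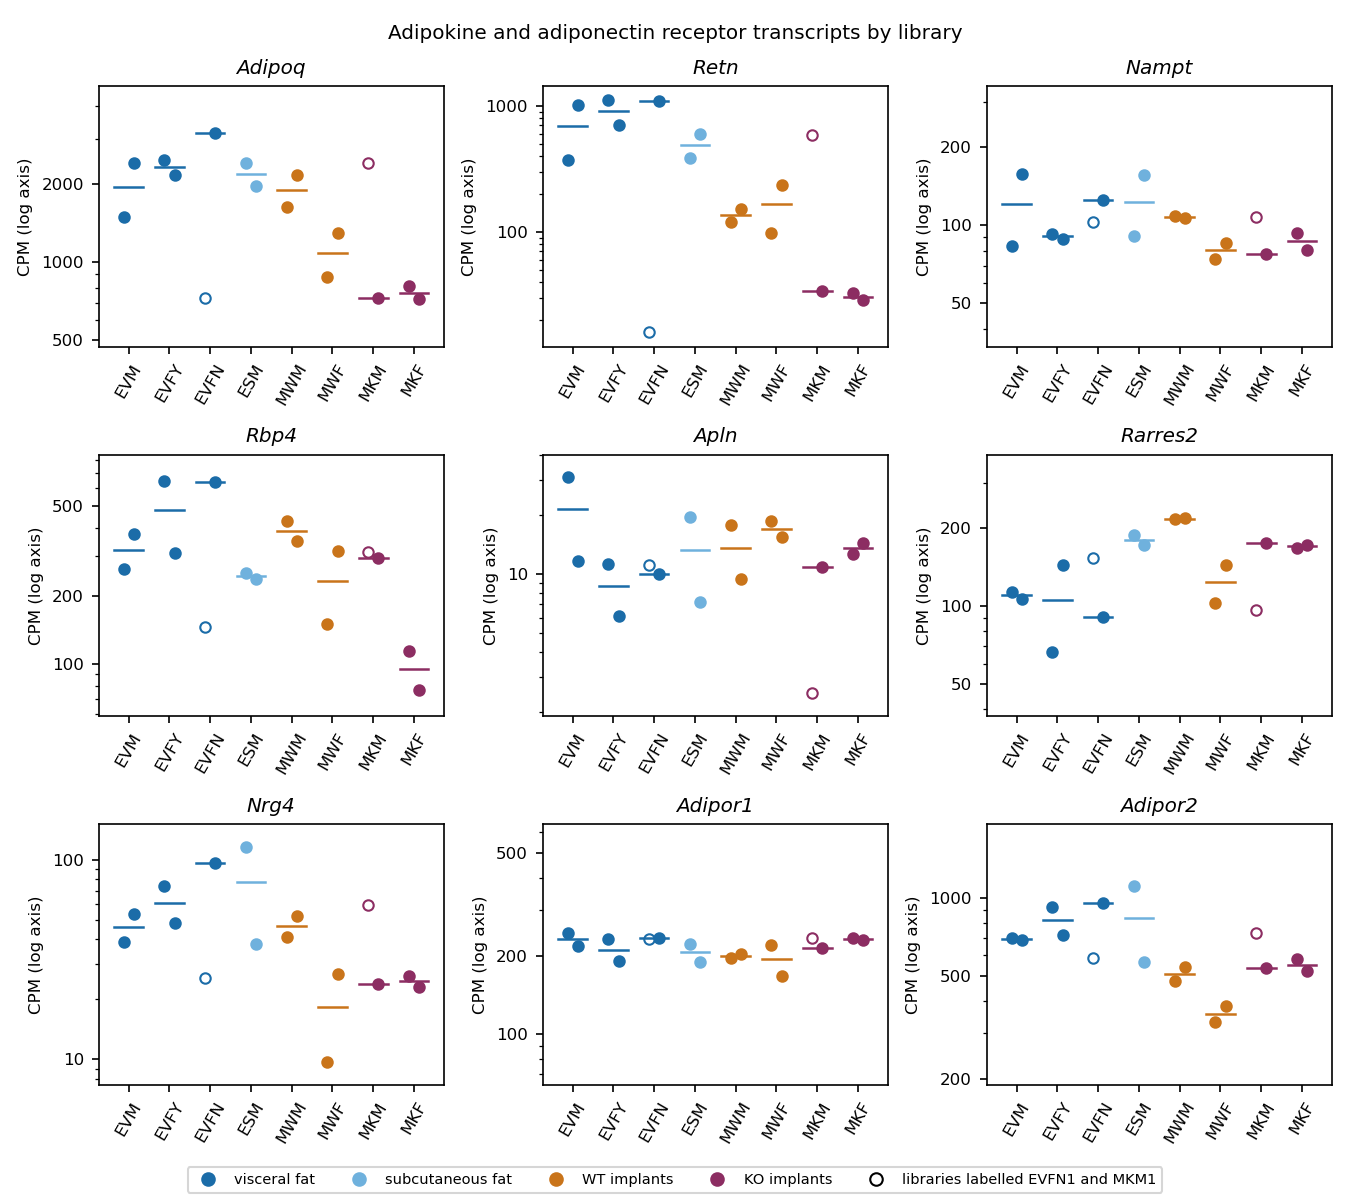
CPM of each member (vertical axis, log scale) by group on the horizontal axis, 1 point per library, with open points for the libraries labelled EVFN1 and MKM1. Retn spans the widest range and Adipor1 the narrowest, and the EVFN1 points sit beside or below the KO implants for Adipoq and Retn while the MKM1 points sit among the visceral fat libraries.

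Per kilobase of exon, adiponectin was the most abundant member in every group, with a mean level of 1698 CPM per kb in visceral fat, 1084 in WT implants and 545 in KO implants. Resistin ranked 2 of 9 in visceral fat at 545 CPM per kb, 3 in WT implants at 96.0 and 6 in KO implants at 20.1. Apelin was the least abundant in each of these 3 groups, at 4.0 to 4.83 CPM per kb. Adipor2 exceeded Adipor1 per kb throughout, by 133 to 44.6 CPM per kb in visceral fat and by 91.1 to 45.1 in KO implants. Over the 14 libraries the ratio of the highest to the lowest CPM was 38.7 for Retn, 12.0 for Nrg4, 8.41 for Rbp4, 5.03 for Apln, 4.39 for Adipoq, 3.36 for Adipor2, 3.30 for Rarres2, 2.13 for Nampt and 1.47 for Adipor1.

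Between KO and WT implants, 2 of 9 members fell at an adjusted p under 0.05 (limma, Benjamini-Hochberg over 17871 genes), where 10.8% of all genes passed and 4.1% passed as lower. These were Adipoq and Retn. Between WT implants and visceral fat, 3 members were lower in the implants (Adipoq, Retn and Adipor2) and 1 higher (Rarres2), where 22.4% of all genes passed, 6.5% as lower and 15.9% as higher. Between KO implants and visceral fat, 4 were lower (Adipoq, Retn, Rbp4 and Nrg4) and 1 higher (Rarres2), against 24.6% of all genes, 8.25% as lower and 16.4% as higher. Against subcutaneous fat, Retn alone was lower in WT implants (10.4% of all genes passed, 1.82% as lower) and Adipoq and Retn in KO implants (18.3%, 4.9% as lower). The implant contrasts share the WT, KO or fat libraries and are not independent of each other. All implants are labelled surgical, whereas the visceral pool holds EVM (surgery), EVFN2 (no surgery) and EVFY, whose code is not spelled out. The contrasts with visceral fat thus mix tissue with surgery, whose part was not tested. The median log2 difference over the 9 members was -0.18 between KO and WT implants (-0.06 over all genes tested), -0.63 between WT implants and visceral fat (0.11 over all genes) and -0.59 between KO implants and visceral fat (0.08 over all genes).

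These counts depended on single libraries. Between KO and WT implants the count was 0 without MKF2 or MWM2 and 1 without MKF1, MWF2 or MWM1. All genes passing there fell from 1924 to 839, 825, 1447, 1803 and 1006, in that order of libraries. Between WT implants and visceral fat the member count was 1 without MWM1 and 2 without MWF1 or EVFN2. All genes passing fell from 4011 to 1708, 2708 and 2962, in that order. Between KO implants and visceral fat the member count was 3 without any 1 of MKF1, MKF2, MKM2, EVM1, EVM2, MWM1, MWM2 or EVFN2. All genes passing went from 4402 to between 2815 (without MKF1) and 4656 (without EVM1), with a rise only without EVM1. Between WT implants and subcutaneous fat the member count was 0 without any 1 of EVFY1, EVFY2, ESM1, MKF1, MKF2, MWF1, MWM1 or MWM2. All genes passing fell from 1858 to between 293 (without ESM1) and 1698 (without EVFY2). Between KO implants and subcutaneous fat the member count was 4 without ESM2, while all genes passing fell from 3266 to 1672. With all 16 libraries used as labelled, the counts were 0 in each contrast of the preceding paragraph other than WT implants with visceral fat, where Adipor2 alone passed. All genes passing then numbered 309 between KO and WT implants. Against visceral fat they numbered 1735 for WT and 0 for KO implants, and against subcutaneous fat 444 and 49. Median-of-ratios scaling moved the split of all genes between WT implants and visceral fat from 2849 higher and 1162 lower to 2428 and 1883, and between WT implants and subcutaneous fat from 1532 and 326 to 1394 and 587. It shifted the median gene by -0.118 (log2) in WT implants minus subcutaneous fat and by -0.112 in KO implants minus subcutaneous fat.

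**Figure D2:**
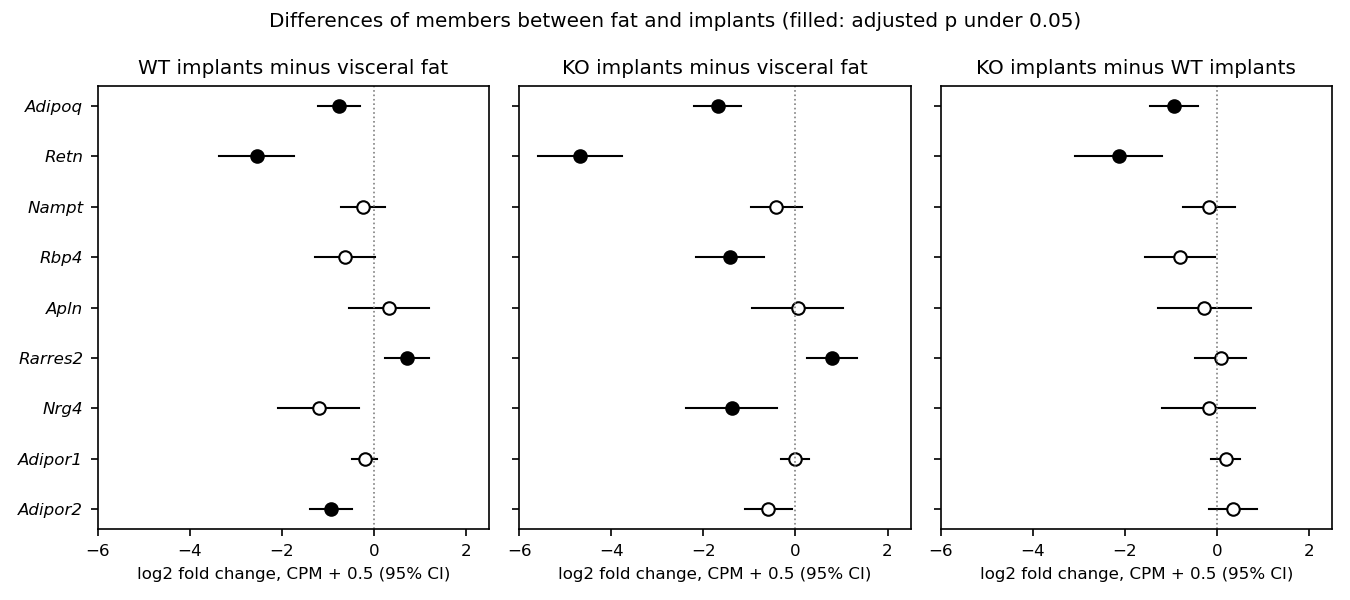
Log2 difference of each member (horizontal axis, with 95% intervals from limma) in the main contrasts, filled where the adjusted p was under 0.05. Retn and Adipoq lie left of 0 in the contrasts of KO implants with WT implants and with visceral fat, whereas Adipor1 and Nampt intervals include 0.

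On average, adiponectin RNA was about 2 times lower in KO than in WT implants and lower again than in fat depots. The 3 KO implants had 729 (MKM2), 809.9 (MKF1) and 719 CPM (MKF2), and the WT implants 876 (MWF1), 1304 (MWF2), 1636 (MWM1) and 2175 CPM (MWM2). All KO implants lay below all WT implants. Visceral fat had 1503 (EVM1), 2415 (EVM2), 2476 (EVFY1), 2177 (EVFY2) and 3156 CPM (EVFN2), and subcutaneous fat 2418 and 1981 CPM. The KO implants lay below every fat library, whereas MWM1 and MWM2 lay inside the visceral range. EVFN1 had 726 CPM and MKM1 2422 CPM. Group means were 753 ± 49.7 (SD, n = 3) in KO implants, 1498 ± 548 (n = 4) in WT implants and 2345 ± 595 CPM (n = 5) in visceral fat. The log2 difference of KO from WT implants was -0.93 (SE 0.23, adjusted p = 0.0351). Between the female codes alone it was smaller and did not pass (MKF minus MWF -0.48, adjusted p = 0.268). MKM2 was the only male-coded KO implant in the fit. KO implants differed from visceral fat by -1.69 (SE 0.22, adjusted p = 0.00113) and from subcutaneous fat by -1.55 (adjusted p = 0.00589). WT implants differed from visceral fat by -0.76 (SE 0.20, adjusted p = 0.0273). In the order of the codes, EVFN2 was highest, EVFY, ESM, EVM and MWM each overlapped the next, MWF lay below them without overlap, and MKF and MKM2, lowest, overlapped each other. Over all genes, 27% had no overlap between KO and WT implants, 14.4% between WT implants and visceral fat and 31.7% between KO implants and visceral fat. Between KO implants and subcutaneous fat (3 against 2 libraries) the share was 53.6%.

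The Adipoq difference of KO from WT implants no longer passed without MKF1 (adjusted p = 0.0675), MKF2 (0.106), MWF2 (0.0748), MWM1 (0.0603) or MWM2 (0.118), with edgeR on recovered reads (0.0503), or with all 16 libraries (0.564). That of WT implants from visceral fat was lost without EVFY1 (0.0575), MWF1 (0.0848), MWM1 (0.105) or EVFN2 (0.0881) and with all 16 libraries (0.562). The contrasts of KO implants with either fat depot were lost only with all 16 libraries (-0.90, adjusted p = 0.434, for visceral and -1.12, adjusted p = 0.319, for subcutaneous fat). White adipocyte markers summed to 30771 to 37700 CPM in KO implants, 22388 to 46242 in WT implants and 47011 to 70919 in visceral fat.

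Per 1000 CPM of those 14 markers, Adipoq had 22.6 ± 1.11 CPM in KO implants (n = 3), 41.6 ± 3.8 in WT implants (n = 4) and 40.3 ± 5.42 in visceral fat (n = 5). The KO values were all below the others, while WT implants and visceral fat overlapped. Relative to leptin RNA, the Adipoq level was 0.485 ± 0.0648 times the Lep CPM in KO implants, 1.01 ± 0.215 in WT implants and 2.26 ± 0.828 in visceral fat. The ratios were chosen after values were seen, and the part of other cell types in the marker sum was not tested. In 24 exact two-sided permutation tests over libraries, none passed after Benjamini-Hochberg adjustment, the lowest adjusted p being 0.0779. Libraries allow no p below 0.0571 between KO and WT implants, which cannot reach 0.05, or below 0.0357 between KO implants and visceral fat. The Adipoq-to-Lep ratio reached these smallest values in both contrasts (exact p = 0.0571 and 0.0357).

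**Figure D3:**
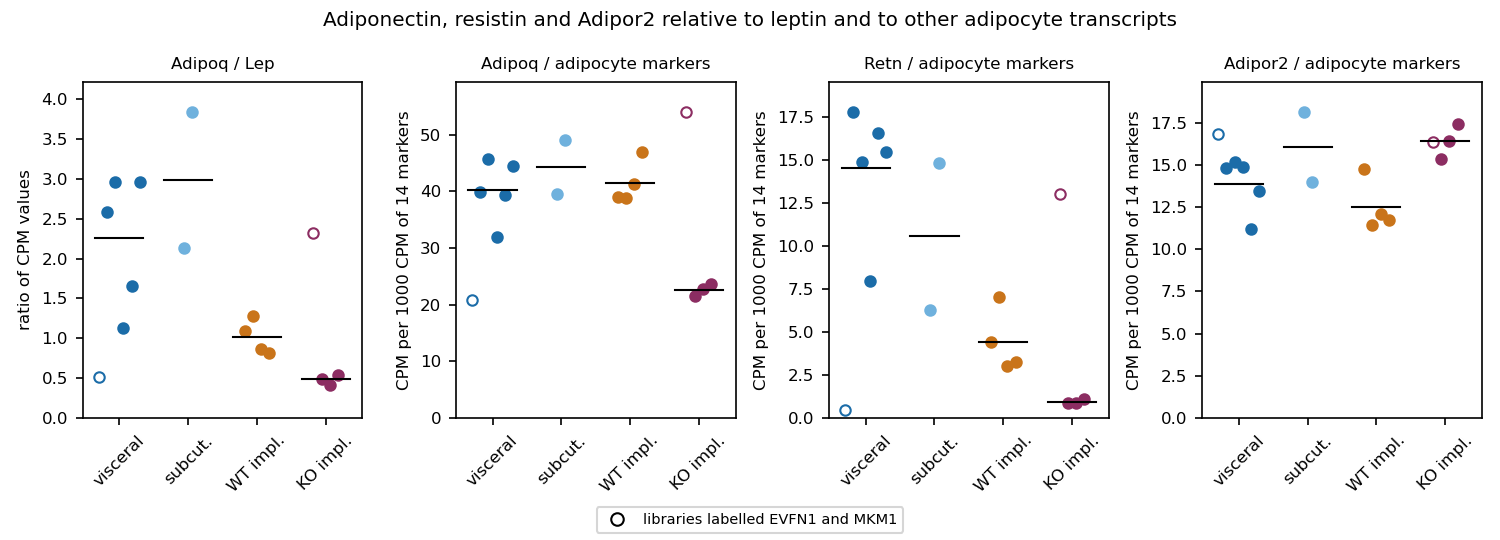
From left to right, Adipoq divided by Lep (ratio of CPM values), and Adipoq, Retn and Adipor2 in CPM per 1000 CPM of 14 summed white adipocyte markers (vertical axes), 1 point per library by group, with bars at group means and open points for the libraries labelled EVFN1 and MKM1. Among the filled points, the KO implants lie below all WT implants for Adipoq and Retn and above them for Adipor2. The open MKM1 point, drawn with the KO implants, lies above all WT implants in each panel.

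The genes of signalling, processing and metabolism described around the 9 depended on this choice as well. With all 16 libraries used as labelled, the calls of the fixed gene lists that held numbered 4 of 18 between KO and WT implants (Stra6, Ccrl2, Klk1 and Fst), 12 of 46 between WT implants and visceral fat, 0 of 48 between KO implants and visceral fat, where no gene of the whole table passed, and 0 of 4 between visceral and subcutaneous fat. Without EVFN1 and MKM1, the shares of all genes to set beside the counts of each list, here and below, were as follows. Between KO and WT implants 10.8% passed, between WT implants and visceral fat 22.4%, and between KO implants and visceral fat 24.6%. Among 8 genes of adiponectin assembly and adaptor proteins, 1 rose and 1 fell in KO against WT implants. Gstk1 (DsbA-L), which aids adiponectin multimer assembly, fell from 38.2 ± 3.42 to 18.8 ± 1.73 CPM (log2 difference -0.99, adjusted p = 0.0132). Lrp1, a large endocytic receptor, rose by 0.85 (log2, adjusted p = 0.00786). Cdh13 (T-cadherin, which binds multimeric adiponectin) had a log2 difference of 0.35 (adjusted p = 0.366) and Appl1, the receptor adaptor, -0.09 (adjusted p = 0.585). Against visceral fat, the chaperones Erp44 and Calr were higher in WT implants (log2 differences 0.29 and 0.56), and Gstk1 was lower in KO implants (-0.73, adjusted p = 0.0209; -0.34, adjusted p = 0.535, with all 16 libraries). Of 14 tested regulators of adipokine transcription, Klf15 alone fell in KO against WT implants (-1.37, adjusted p = 0.0324), while Ebf2, Cebpa and Pparg, adipocyte transcription factors, were lower in WT implants than in visceral fat (-1.08, -0.69 and -0.73).

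Adipor1 had the narrowest range of the members, and Adipor2 was lower in WT implants than in visceral fat. The Adipor1 level was 227 ± 11.2 CPM in KO implants (n = 3), 197 ± 22.2 in WT implants (n = 4) and 224 ± 21.0 in visceral fat (n = 5). Its KO minus WT difference was 0.19 (log2, 95% interval -0.12 to 0.50, adjusted p = 0.405), and KO implants differed from visceral fat by -0.01 (-0.31 to 0.29). Adipor2 had 330.3 (MWF1), 384 (MWF2), 478 (MWM1) and 543 CPM (MWM2) in WT implants, 535 (MKM2), 579 (MKF1) and 519.9 CPM (MKF2) in KO implants, and 699 (EVM1), 688 (EVM2), 921 (EVFY1), 721 (EVFY2) and 953 CPM (EVFN2) in visceral fat. Every implant lay below every visceral fat library. WT implants were lower than visceral fat by 0.93 on the log2 scale (SE 0.20, -0.93, adjusted p = 0.0124), a call lost only without MWM1 (0.0548). KO implants had a difference of -0.59 from visceral fat (adjusted p = 0.0860), which passed with median-of-ratios scaling (0.0497), with DESeq2 (0.00971) and without ESM1 (0.0165) or ESM2 (0.0166). The KO minus WT value was 0.35 (95% interval -0.17 to 0.86, adjusted p = 0.355). Subcutaneous fat had 1109 and 566 CPM, EVFN1 587 CPM and MKM1 733 CPM.

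The ratio of Adipor2 to Adipor1 per kb was 1.87 ± 0.428 in WT implants, 2.02 ± 0.11 in KO implants and 3.00 ± 0.451 in visceral fat. Both implant groups lay outside the visceral range (exact permutation p = 0.0159 for WT and 0.0357 for KO, adjusted p = 0.0779 for each). Per 1000 CPM of adipocyte markers, Adipor2 had 12.5 ± 1.52 CPM in WT implants and 13.9 ± 1.65 in visceral fat, which overlapped, and 16.4 ± 1.03 in KO implants, all above the WT implants (exact permutation p = 0.0571, the smallest that 3 against 4 libraries allow). On this scale the KO implants also lay above every visceral fat library (log2 difference 0.24, exact permutation p = 0.0357, adjusted p = 0.0779), the opposite order to their CPM levels. Skeletal muscle markers (8 genes) summed to 3012 to 42236 CPM in WT implants and 76.8 to 2479 in KO implants, and their part in these levels was not tested.

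Of 15 tested genes linked to adiponectin signalling, Asah1, a lysosomal ceramidase, rose in KO against WT implants (75.7 ± 6.08 to 161 ± 4.62 CPM, log2 difference 1.08, adjusted p = 0.00146), beside macrophage marker sums of 7716 to 9476 CPM in KO and 1746 to 2347 CPM in WT implants, whose part was not tested. In WT implants against visceral fat, where 22.4% of all genes passed, 1 gene was higher (Prkaa2, an AMPK catalytic subunit, 1.69) and 3 were lower. Skeletal muscle markers summed to 3012 to 42236 CPM in these WT implants and 46.8 to 840 in visceral fat, and their part in the Prkaa2 value was not tested. The 3 lower genes were Irs2, an insulin receptor substrate (-1.07), and the ceramidases Asah2 (-0.53) and Acer2 (-1.06). Among 9 other PAQR-family genes, relatives of the receptors, 0 passed between KO and WT implants, while Paqr9 and Paqr7, membrane progestin receptors, were higher than in visceral fat in WT (2.32 and 1.00) and in KO implants (2.72 and 1.38). Of 9 tested C1q/TNF-related genes, relatives of adiponectin, C1qtnf6 was higher in KO implants than in visceral fat (1.39, adjusted p = 0.0168). Between KO and WT implants none passed, C1qtnf6 having 1.15 (adjusted p = 0.0628).

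Resistin had the largest differences of the 9 genes between KO and WT implants and between either of them and visceral fat. KO implants held 32.6 (MKF1), 28.5 (MKF2) and 34.2 CPM (MKM2), WT implants 98.4 (MWF1), 237 (MWF2), 119.9 (MWM1) and 152 CPM (MWM2), and visceral fat 373 (EVM1), 1016 (EVM2), 1104 (EVFY1), 709 (EVFY2) and 1097 CPM (EVFN2). The 3 groups did not overlap, and subcutaneous fat, at 385 and 598 CPM, lay inside the visceral range. EVFN1 had 16.0 CPM and MKM1 582 CPM. Retn fell by 2.14 on the log2 scale in KO against WT implants (-2.14, SE 0.41, adjusted p = 0.0143), and this was lost without MKF2 (0.0512) or MWM2 (0.0556) and with all 16 libraries (-1.12, adjusted p = 0.610). WT implants were lower than visceral fat (-2.55, SE 0.36, adjusted p = 0.00219) and KO implants lower still (-4.69, SE 0.40, adjusted p = 0.000172). With all 16 libraries these values were -1.54 (adjusted p = 0.377) and -2.66 (adjusted p = 0.431), and no single library left out ended either call. Against subcutaneous fat, the differences were -1.74 for WT implants (adjusted p = 0.0442) and -3.87 for KO implants (adjusted p = 0.00139). The former was lost without any 1 of EVFY1, EVFY2, ESM1, ESM2, MKF1, MKF2, MWF1, MWM1 or MWM2 (adjusted p = 0.0578 to 0.185), with edgeR (0.0533), with no filter (0.062) and with all 16 libraries (0.546), and the latter with all 16 libraries (-2.86, adjusted p = 0.317).

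Per 1000 CPM of adipocyte markers, resistin RNA was 0.958 ± 0.133 CPM in KO implants, 4.44 ± 1.84 in WT implants and 14.5 ± 3.84 in visceral fat, again without overlap. In female-coded implants alone, MKF was below MWF by 2.31 (log2 difference -2.31, SE 0.52, adjusted p = 0.0203), and 16.5% of all genes passed there, 10.4% as lower. Without MWF1 the value was -2.94 and without MWF2 it was -1.67 (adjusted p = 0.105), and the call was also lost without MKF1 (0.0672) or MKF2 (0.120) and with all 16 libraries (0.403). Of 6 tested resistin relatives and proposed receptors, Retnla, a resistin-family gene of macrophages and fat, fell in KO against WT implants from 144 ± 83.2 to 38.9 ± 30.3 CPM (-2.07, adjusted p = 0.0319), and Cap1, a proposed resistin receptor, rose (0.68, adjusted p = 0.0222). Macrophage markers (13 genes, none at 0 in all libraries of a group) summed to 7716 to 9476 CPM in KO implants and 1746 to 2347 CPM in WT implants, and their part in these changes was not tested. Complement factor D (Cfd), another abundant adipokine, also fell, from 1560.2 ± 442 to 99.1 ± 6.70 CPM (-3.92, adjusted p = 0.000341; -2.15, adjusted p = 0.452, with all 16 libraries), and was lower in WT implants than in visceral fat (-2.70).

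Rbp4 was lower in KO implants than in visceral fat, and no difference passed between KO and WT implants. KO implants had 113 (MKF1), 76.6 (MKF2) and 295 CPM (MKM2), WT implants 150.1 (MWF1), 315 (MWF2), 426 (MWM1) and 347 CPM (MWM2), and visceral fat 263 (EVM1), 375 (EVM2), 645 (EVFY1), 310 (EVFY2) and 636 CPM (EVFN2). MKM2 was far above both MKF libraries, and the groups overlapped. The log2 difference of KO implants from visceral fat was -1.43 (SE 0.33, adjusted p = 0.0140), and -2.25 without MKM2. Only the use of all 16 libraries ended the call (adjusted p = 0.431). From WT implants it was -0.80 (adjusted p = 0.158), and without MKM2 it was -1.63 (adjusted p = 0.0229). Without MKM2 the KO side was the female code MKF alone, while the WT side kept both MWM and MWF. Between the female codes, MKF minus MWF was -1.22 and did not pass in limma (adjusted p = 0.0813). DESeq2 called it (-1.14, adjusted p = 0.0353). Subcutaneous fat had 251 and 237 CPM, below all visceral libraries (0.87 for visceral minus subcutaneous, adjusted p = 0.453), EVFN1 145 CPM and MKM1 313 CPM. Of all genes, 11.1% had no overlap between visceral and subcutaneous fat.

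Hepatocyte transcripts varied beside Rbp4, which hepatocytes express. The 13 hepatocyte markers summed to 47.8 (MKF2), 1526 (MKF1) and 8850 CPM (MKM2) in KO implants, the order of their Rbp4 levels, to 2574 to 12325 CPM in WT implants, and to 11.4 to 66.9 CPM in visceral fat, where Fgb was at 0 in all 5 libraries. The fat libraries thus had high Rbp4 with few such transcripts, and the part of these transcripts in the implants' Rbp4 was not tested.

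**Figure D4:**
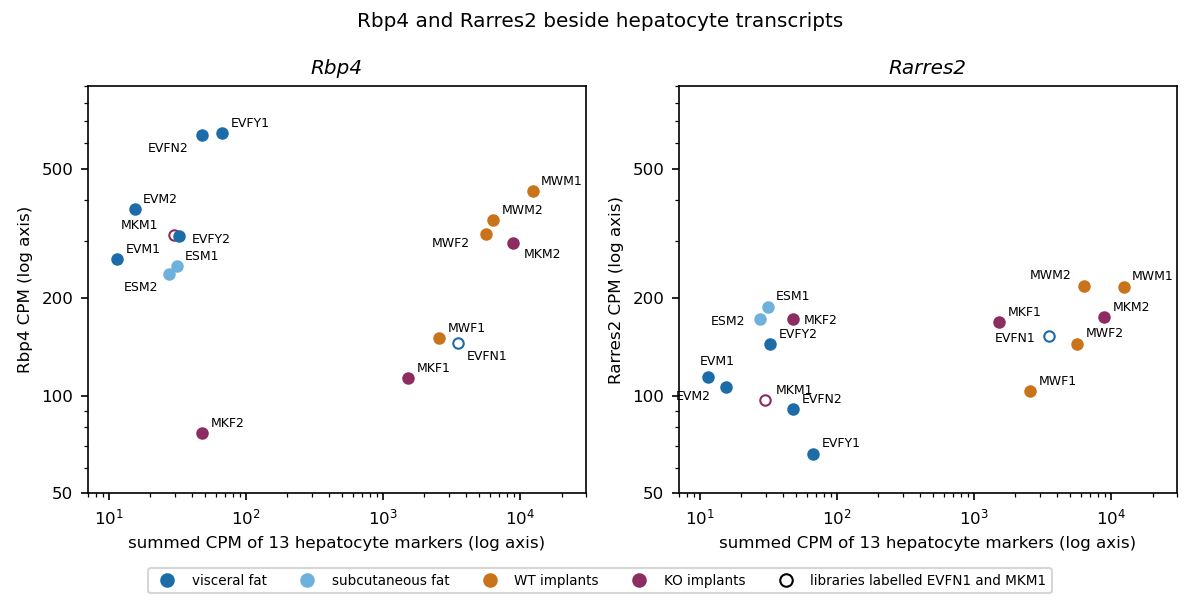
CPM of Rbp4 (left) and Rarres2 (right) against the summed CPM of 13 hepatocyte markers, both axes on log scales, 1 labelled point per library. Among the filled points, visceral and subcutaneous fat lie at the left with sums below 100 CPM, and the 3 KO implants spread from 47.8 to 8850 CPM. The open points are the libraries labelled EVFN1, at 3535 CPM, and MKM1, at 29.9 CPM.

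Of 15 tested genes of retinol transport and metabolism, Stra6, the cell-surface RBP4 receptor, fell in KO against WT implants (5.59 ± 4.82 to 0.648 ± 0.215 CPM, -1.92, adjusted p = 0.0170). The fall was larger between the female codes (MKF minus MWF -3.22, adjusted p = 0.00427), and MWM lay below MWF (-2.19, adjusted p = 0.0223). The male minus female difference of the KO effect was 2.59 and did not pass, with MKM2 as the only male KO library. In WT implants against visceral fat, 3 rose (Ttr, Stra6 by 2.41 and Stra6l, another RBP4 receptor, by 2.81) and 3 fell, among them Rbp7, a fatty-tissue retinol-binding protein (-1.94, adjusted p = 0.00266). Ttr, itself 1 of the hepatocyte markers, had 120 to 651 CPM in WT implants, 0.901 to 393 in KO implants and 0 to 0.167 in visceral fat. Rbp7 was also lower in KO implants than in visceral fat (-1.85, adjusted p = 0.00407), together with the retinoic acid receptor Rarg (-0.62).

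Chemerin was higher in both kinds of implant than in visceral fat. Rarres2 stood at 168 (MKF1), 172 (MKF2) and 175.0 CPM (MKM2) in KO implants, at 103 (MWF1), 145 (MWF2), 217 (MWM1) and 218 CPM (MWM2) in WT implants, and at 114 (EVM1), 106 (EVM2), 66.3 (EVFY1), 144 (EVFY2) and 90.9 CPM (EVFN2) in visceral fat. All KO implants lay above visceral fat, whereas WT implants overlapped it through MWF1. Subcutaneous fat had 188 and 172 CPM, also above all visceral libraries (visceral minus subcutaneous -0.86, adjusted p = 0.266), EVFN1 had 153 CPM and MKM1 96.9 CPM. The log2 difference from visceral fat was 0.79 for KO implants (SE 0.24, adjusted p = 0.0409) and 0.71 for WT implants (SE 0.21, adjusted p = 0.0423). KO and WT implants differed by 0.08 (95% interval -0.47 to 0.63). Both calls sat near the threshold. That for KO implants was lost without any 1 of ESM1, ESM2, MKF1, MKF2, MKM2, EVM1, EVM2, EVFN2, MWM1 or MWM2 (adjusted p = 0.0541 to 0.0944), with no filter on low genes (0.0547) and with all 16 libraries (0.454). That for WT implants was lost without any 1 of ESM1, ESM2, MKF1, MKF2, EVM1, EVM2, EVFN2, MWF1, MWF2, MWM1 or MWM2 (0.0526 to 0.123), with no filter (0.0549) and with all 16 libraries (0.149).

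Per 1000 CPM of adipocyte markers, chemerin RNA was 5.19 ± 0.646 CPM in KO implants, 4.78 ± 0.495 in WT implants and 1.91 ± 0.814 in visceral fat, with both implant groups above the visceral range. Rarres2 is also expressed by hepatocytes and fibroblasts. Fibroblast and progenitor markers (10 genes) summed to 16176 to 21498 CPM in KO implants, 7185 to 10697 in WT implants and 6399 to 17622 in visceral fat, and the part of either cell type was not tested. The chemerin receptor Cmklr1 was lower in WT (-1.65, adjusted p = 0.0150) and KO implants (-1.82, adjusted p = 0.0134) than in visceral fat, at 132 ± 34.2, 119 ± 17.1 and 428 ± 273 CPM. Gpr1, another receptor, was lower in WT implants (-1.16, adjusted p = 0.0398), and Ccrl2, which presents chemerin without signalling, rose in KO against WT implants from 6.08 ± 1.28 to 14 ± 0.498 CPM (1.17, adjusted p = 0.0131).

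Among 12 chemerin receptors and processing enzymes, 4 rose and 2 fell in KO against WT implants, where 10.8% of all genes passed. The cathepsins Ctsl, Ctsk and Ctss, proteases able to cut chemerin, rose by 1.42, 2.30 and 1.91 on the log2 scale (adjusted p = 0.00143, 0.00146 and 0.00348), Ctss from 225 ± 54.4 to 837 ± 19.9 CPM, beside the macrophage marker sums given above. Mmp9 fell (-1.64, adjusted p = 0.00344). In WT implants against visceral fat 7 rose and 3 fell, led by the liver-expressed plasma proteins Cpn1, Plg, F12 and Cpb2, beside the hepatocyte marker sums given above. Plg (plasminogen) had 48.1 to 212 CPM in WT implants against 0 to 0.238 in visceral fat, and F12 11.3 to 78.7 CPM against 0 in all 5 visceral libraries.

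Nrg4 was lower in KO implants than in visceral fat near the threshold. KO implants had 26.1 (MKF1), 23.1 (MKF2) and 23.8 CPM (MKM2), WT implants 9.72 (MWF1), 26.9 (MWF2), 41.3 (MWM1) and 52.1 CPM (MWM2), and visceral fat 38.7 (EVM1), 53.7 (EVM2), 73.8 (EVFY1), 48.2 (EVFY2) and 96.3 CPM (EVFN2). KO implants lay below all visceral libraries. Among the WT implants, MWF1 and MWF2 also lay below all visceral libraries, and MWM1 and MWM2 lay inside the visceral range. The difference of KO implants from visceral fat was -1.39 (log2, SE 0.43, adjusted p = 0.0463). It was lost without any 1 of EVFY1, EVFY2, MKF1, MKF2, MKM2, EVM1, EVM2, EVFN2, MWM1 or MWM2 (0.0542 to 0.118), with no filter (0.0727) and with all 16 libraries (0.492). WT implants had -1.20 (adjusted p = 0.0536), which passed with median-of-ratios scaling (0.0367), with DESeq2 (0.0045) and without ESM1 (0.0256), ESM2 (0.0255) or MWF2 (0.0279). KO minus WT was -0.18 (95% interval -1.19 to 0.82). Subcutaneous fat had 117 and 37.8 CPM, EVFN1 25.5 and MKM1 59.7 CPM. Relative to 1000 CPM of adipocyte markers, Nrg4 had 0.732, 0.851 and 1.05 CPM on average in KO implants, WT implants and visceral fat.

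Of 7 tested neuregulins and ERBB receptors, Adam17, a protease that sheds such ligands, rose in KO against WT implants (0.45, adjusted p = 0.0375) and was higher in both kinds of implant than in visceral fat (0.44 and 0.90). Nrg1 and the receptor Erbb3 were higher in WT implants than in visceral fat (1.42 and 1.65). Both are expressed in peripheral nerve, whose markers were also higher there: 15 sensory neuron markers summed to 61.6 to 83.4 CPM in WT implants and 8.09 to 12.5 in visceral fat, and 9 Schwann and satellite glia markers to 323 to 426 and 198 to 265 CPM, and the part of nerve was not tested. Erbb2 was lower in KO implants than in visceral fat (-0.92, adjusted p = 0.0137). Erbb4, the receptor of neuregulin 4, was low everywhere in implants and visceral fat, at 1.27 ± 0.562 CPM in WT implants, 0.460 ± 0.441 in KO implants and 0.477 ± 0.362 in visceral fat. It was lower in visceral than in subcutaneous fat (-2.16, adjusted p = 0.0472).

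Apelin and Nampt passed in no contrast. Apln lay between 10.8 and 14.3 CPM in KO implants, 9.37 and 18.5 in WT implants, 7.23 and 19.3 in subcutaneous fat and 6.14 and 30.9 in visceral fat, where EVM1 alone exceeded 12 CPM. EVFN1 had 11.1 CPM and MKM1 2.48 CPM. KO minus WT was -0.28 (95% interval -1.28 to 0.73). The receptor gene Aplnr had 23.8 ± 10.7 CPM in WT implants and 29.8 ± 6.33 in KO implants (0.31, adjusted p = 0.549). Of 5 tested genes of apelin processing, Mme (neprilysin, which degrades apelin) and Klkb1 (plasma kallikrein, a liver product) were higher in both kinds of implant than in visceral fat (Mme 1.19 and 1.01, Klkb1 3.17 and 1.92), and Mme was lower in visceral than in subcutaneous fat (-1.44, adjusted p = 0.0343).

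Nampt lay between 77.8 and 93.4 CPM in KO implants, 74.3 and 109 in WT implants, 83.2 and 158 in visceral fat and 91.0 and 156 in subcutaneous fat, with all 4 groups overlapping. EVFN1 had 103 CPM and MKM1 108 CPM. KO minus WT was -0.17 (95% interval -0.73 to 0.38, adjusted p = 0.685). Of 16 genes that make or use NAD, 0 passed between KO and WT implants, the nearest being Cd38, an NAD-consuming ectoenzyme (-0.47, adjusted p = 0.0637). Qprt, of NAD synthesis from tryptophan, was higher in WT and KO implants than in visceral fat (3.17 and 2.80), and Nnt, a mitochondrial transhydrogenase, was lower in KO implants (-1.02, adjusted p = 0.00844).

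No member passed between visceral and subcutaneous fat, with 2 at an unadjusted p under 0.05 by limma, where 1.2% of all genes passed and 10% had such an unadjusted p. The subcutaneous side is ESM alone (male, surgery), whereas the visceral pool also holds EVFN2 (no surgery) and EVFY (not spelled out). This contrast thus mixes depot with surgery, whose part was not tested. edgeR on recovered reads called 0, and DESeq2 called Rarres2 (-0.87, adjusted p = 0.0146), which also passed in limma without EVFY2 (-1.04, adjusted p = 0.0207). Between male- and female-coded WT implants 0 passed in limma, with 3 at an unadjusted p under 0.05, where 13.8% of all genes passed and 29.2% had such an unadjusted p. DESeq2 called 4 and edgeR 0, and median-of-ratios scaling, which moved the median gene by 0.232 (log2) and the split of all genes from 262 higher and 2198 lower to 848 and 1290, called Rarres2 (1.07, adjusted p = 0.0381). Without EVFY1 or EVFY2 it also passed (0.0175 and 0.0173). The largest value was 1.49 for Nrg4 (adjusted p = 0.116), and for Adipoq it was 0.82 (adjusted p = 0.0959). The 2 codes did not overlap for Adipoq, Rbp4, Rarres2, Nrg4, Nampt and Adipor2, male above female, where 61.4% of all genes did not overlap, 17.5% with male above female. T and B lymphocyte markers summed to 802 and 648 CPM in the MWF libraries and to 11.8 and 31.5 CPM in MWM1 and MWM2. The muscle sums differed widely within WT implants, and neither lymphocytes nor muscle were tested as a part of this.

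Between MKF and MWF, scaling moved the median gene by 0.138 and the split from 1074 higher and 1866 lower to 1685 and 1425, with Retn lower in either case. The count of 1 member became 0 without MKF1, MKF2 or MWF2 and 2 without ESM1 or ESM2. All genes passing went from 2940 to 1712, 740, 1608, 2882 and 2891, in that order of libraries. Between EVFY and EVM fat, 0 passed by limma, edgeR or DESeq2, with 0 at an unadjusted p under 0.05, where 0.845% of all genes passed and 15.4% had such an unadjusted p. EVM is labelled surgical and EVFY is not spelled out, so these codes may differ in surgery as well. For the difference between sexes in the KO effect, estimated with MKM2 as the only male KO implant and its spread assumed equal to the other codes, 0 passed by all 3 tools, with 0 at an unadjusted p under 0.05, where 0.548% of all genes passed and 16% had such an unadjusted p. Adipoq had -0.89 (95% interval -1.92 to 0.15) in that test, in which scaling shifted the median gene by -0.265.

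Over the 14 libraries, the genes whose log2 levels were most like Adipoq's among 11613 genes were Bnip3 (r = 0.974), Ces1d (0.967) and Clybl (0.964). For Retn they were Fn3krp (0.974), Eci3 (0.972) and Cfd (0.968), and for Nrg4 Plin4 (0.967), Apol6 and Elmod3 (0.951 each). The genes most like Adipor2 included Phldb1 (0.960). Rbp4 was most like Bphl (0.956), Acsm5 (0.950) and Gpt2 (0.908), and Nampt most like Bcat2 (0.929), Alkal2 (0.914) and Aacs (0.909). Rarres2, Adipor1 and Apln had looser matches, led by Nqo2 (0.887), Dusp9 (0.812) and Vash1 (0.849). Among members, Adipoq and Retn had r = 0.907, Nrg4 and Adipor2 0.893, and Adipoq and Nrg4 0.854. These values describe 14 libraries in groups that differ in tissue, depth and adipocyte marker content, and they carry no test.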

How the data were processed

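RNA of 16 mouse libraries was analysed as a deposited table of CPM values per gene; the labelled subcutaneous sample ESF is not analysed here. The submitters' processing notes list STAR 2.5.4, featureCounts (Subread 1.6.3), cutadapt 2.7, FastQC 0.11.4 and the build mm10; the strand setting is not given in the sources used here. Per the labels' protocols, ribosomal RNA was removed with RNase H and cDNA was primed with random hexamers, while the molecule is labelled polyA RNA.

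The deposited CPM values summed to 1000000 per library, and 100% of them were whole multiples of 1 read (tolerance 0.001 reads), so reads were recovered, 16444965 to 25805502 per library. The test took the 17871 of 54658 genes that reached 1 CPM in 2 or more libraries. log2(CPM + 0.5) was fitted in limma 3.58.1 (R 4.3.3) with trend and robust variance moderation over 14 libraries and 8 codes (6 residual degrees of freedom), without EVFN1 and MKM1. Groups were compared with equal weight per code, and p-values were adjusted by Benjamini-Hochberg over all genes tested, with a threshold of 0.05. A log2 difference is on this scale and understates the change of low genes. Alternatives were edgeR 4.0.16 and DESeq2 1.42.0 on the recovered reads, other pseudocounts, no filter, another scaling, a replicate block, all 16 libraries and each library left out. Scripts were tested on simulated data. Ratios were compared by exact permutation (scipy 1.17.1).

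All 9 members were tested in every contrast. From 12 gene lists, up to 4 genes with the smallest adjusted p that passed are named (2 where none passed), with fixed receptors and partners. For each member the 3 most similar genes with a mean of at least 5 CPM are named. A few genes that these rules select are not reported here. The members and lists were chosen with earlier results of these data known. GENCODE M21 held 99.0% of the symbols.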

Additional observations from a re-analysis of the deposited data

Results flagged for a closer look

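Within the 5 visceral fat libraries, the Apln level of EVM1 stood apart from the others: it was 30.9 CPM, against 6.14 to 11.7 CPM in EVM2, EVFY1, EVFY2 and EVFN2. The gap to the nearest library took up more of the group's range than the 95% critical value of Dixon's test for 5 samples, a test that flags a share of groups by chance. Apelin passed in no contrast that holds this library.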

How the results depend on the processing

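With 2 libraries per code, single libraries and the placement of EVFN1 and MKM1 decided many calls. The count of members that passed moved as follows, and the cause was not tested. Between KO and WT implants it went from 2 to 0 with all 16 libraries and 1 with edgeR (0 to 3 with a library left out); between WT implants and visceral fat from 4 to 1 with all 16 libraries, 3 with no filter, 5 with median-of-ratios scaling and 6 with DESeq2 (1 to 4); between KO implants and visceral fat from 5 to 0 with all 16 libraries, 3 with no filter and 6 with scaling or DESeq2 (3 to 5); between WT implants and subcutaneous fat from 1 to 0 with all 16 libraries or no filter, 2 with median-of-ratios scaling and 4 with DESeq2 (0 to 1); between KO implants and subcutaneous fat from 2 to 0 with all 16 libraries and 4 with DESeq2 (2 to 4); between visceral and subcutaneous fat from 0 to 1 with DESeq2 (0 to 1); between MKF and MWF from 1 to 0 with all 16 libraries and 3 with DESeq2 (0 to 2); and between MWM and MWF from 0 to 1 with scaling and 4 with DESeq2 (0 to 1). EVFY against EVM and the difference between sexes had 0 in all settings. Of the 90 member differences, pseudocounts of 0.1 and 2 changed no call and no sign.

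Of all genes, the numbers passing were 1924 between KO and WT implants (309 with all 16 libraries, 3078 with DESeq2, 825 to 2350 with a library left out), 4011 between WT implants and visceral fat (1735, 5164 and 1708 to 4256), 4402 between KO implants and visceral fat (0, 5446 and 2815 to 4656), 1858 between WT implants and subcutaneous fat (444, 2875 and 293 to 2319), 3266 between KO implants and subcutaneous fat (49, 4318 and 1672 to 3588), 214 between visceral and subcutaneous fat (58, 715 and 48 to 419), 2940 between MKF and MWF (1021, 3835 and 740 to 3354), 2460 between MWM and MWF (1664, 3069 and 520 to 2477; 1596 with edgeR), 151 between EVFY and EVM (3, 1302 and 33 to 474; 280 with scaling) and 98 for the difference between sexes (217, 619 and 0 to 350; 0 with edgeR or a pseudocount of 0.1, 56 with scaling, 284 with a pseudocount of 2 and 282 with no filter). Between WT implants and subcutaneous fat edgeR gave 1181.

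The replicate numbers did not pair the libraries: deviations of same-numbered libraries correlated at -0.444 to 0.336 over 15 pairs of codes, 7 of them above 0.1. With the replicate block the count between KO implants and visceral fat was 4, Nrg4 having an adjusted p of 0.0657. Adipor1 there had 0.0028 in place of -0.01, and Apln in visceral minus subcutaneous fat had 0.10 in place of -0.02.

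In 30 member differences, 70 values changed sign, none of them with an adjusted p under 0.05 (lowest 0.452), and the cause was not tested. With all 16 libraries, Rarres2 and Nrg4 in KO minus WT implants were -0.13 and 0.14, Apln and Adipor1 in KO implants minus visceral fat -0.46 and 0.022, Apln in KO implants minus subcutaneous fat -0.46, Adipoq, Retn and Adipor2 in visceral minus subcutaneous fat -0.22, -0.20 and -0.078, and Apln in the difference between sexes -0.89. Apln in KO implants minus visceral fat, minus subcutaneous fat and between sexes was -0.029, -0.089 and -0.19 with scaling, -0.074, -0.22 and -0.20 with edgeR, and -0.095, -0.24 and -0.23 with DESeq2. Adipor2 in visceral minus subcutaneous fat was -0.065 with edgeR and -0.060 with DESeq2, Adipor1 in KO implants minus subcutaneous fat -0.0014 with DESeq2, and Retn in MWM minus MWF 0.061 with scaling.

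The other sign changes came from leaving out 1 library. In EVFY minus EVM they spanned -0.057 to 0.63 for Adipoq, -0.28 to 0.0049 for Adipor1, -0.80 to 0.13 for Nampt, -0.73 to 0.39 for Rarres2, -0.019 to 1.04 for Rbp4, -0.20 to 1.25 for Retn. In KO implants minus subcutaneous fat they spanned -0.66 to 0.70 for Apln, -0.13 to 0.0023 for Rarres2. In KO implants minus visceral fat they spanned -0.059 to 0.049 for Adipor1, -0.18 to 0.27 for Apln. In KO implants minus WT implants they spanned -0.54 to 0.17 for Nrg4, -0.041 to 0.20 for Rarres2. In the difference between sexes they spanned -0.37 to 0.023 for Adipor1, -0.37 to 0.51 for Apln, -0.29 to 0.97 for Retn. In MKF minus MWF they spanned -0.13 to 1.29 for Nrg4. In MWM minus MWF they spanned -0.14 to 0.25 for Adipor1, -0.81 to 0.068 for Apln, -0.81 to 0.45 for Retn. In visceral minus subcutaneous fat they spanned -0.057 to 0.28 for Adipoq, -0.45 to 0.52 for Adipor2, -0.70 to 0.65 for Apln, -0.51 to 0.27 for Nampt, -0.86 to 0.75 for Nrg4. In WT implants minus subcutaneous fat they spanned -0.19 to 0.048 for Adipor1, -0.38 to 0.98 for Apln, -0.75 to 0.026 for Nampt, -0.021 to 0.51 for Rbp4.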

Other observations

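Of 22 tested other secreted factors of fat, 3 rose and 1 fell in KO against WT implants, where 10.8% of all genes passed. Metrnl (meteorin-like) rose from 31.3 ± 12.4 to 103 ± 19.9 CPM (log2 difference 1.72, adjusted p = 0.000653), Fst (follistatin, which binds activins) from 16.7 ± 7.96 to 28.2 ± 2.73 CPM (0.85, adjusted p = 0.00966) and Tnf, an inflammatory cytokine, from 1.11 ± 0.639 to 2.31 ± 0.214 CPM (0.91, adjusted p = 0.0308), beside macrophage marker sums of 7716 to 9476 CPM in KO and 1746 to 2347 CPM in WT implants, whose part was not tested. Agt (angiotensinogen) was lower in WT (-1.72) and KO implants (-2.46) than in visceral fat, and higher in visceral than in subcutaneous fat (1.92, adjusted p = 0.0118). Aldh1a2, which makes retinoic acid, was higher in visceral than in subcutaneous fat (1.19, adjusted p = 0.0376), where mesothelial markers (10 genes) summed to 276 to 548 CPM against 5.41 to 11.3 CPM, and the part of mesothelium was not tested. With all 16 libraries used as labelled, Fst alone of these calls held (0.90, adjusted p = 0.0209), the others having adjusted p values of 0.0931 to 0.557. Without EVFN1 and MKM1, the Fst rise was larger between the female codes (MKF minus MWF 1.45, adjusted p = 0.00256), and MWM lay above MWF (1.16, adjusted p = 0.00681). The male minus female difference of its KO effect was -1.19 and did not pass, with MKM2 as the only male KO library.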
